A study of Mus musculus with 18 samples.

Results

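The integrated stress response and amino acid genes described here are 34 mouse genes: the transcription factor Atf4, factors and kinases that act with it, enzymes that make amino acids and 1-carbon units, amino acid transporters and a few textbook targets. Membership came from a list of Atf4-linked, amino acid synthesis and amino acid transport genes. Of the 34, 33 had an array probe set assigned to 1 gene, and each was read through the probe set whose mean over the 18 arrays was highest. Pycr1, which completes proline synthesis, had no such probe set and was not analysed here. A filter that left out the 40% of genes with the lowest mean kept 31 of the 33 members, and 10916 of 18193 genes in all. Slc7a3, a transporter of cationic amino acids, and Fgf21, a secreted hormone, fell below it.

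Affymetrix 3' expression arrays had been hybridised with RNA from the side population (SP) and from the non-SP remainder of A2C12, betaD5 and cRAF_cMYC, which are 3 mouse lung carcinoma lines. SP cells are the fraction of a culture that keeps little of the DNA dye Hoechst. All 3 lines arose by spontaneous transformation of cells from lung tumours of 8-month-old mice that carried both a c-myc and a c-raf transgene, so every group shares both transgenes and there is no group without them. The promoter that drives the transgenes is not given in the sources used here. Cells were grown in DMEM with fetal calf serum and glutamine and received no treatment. Line and fraction together give 6 groups with 3 arrays in each, numbered 1 to 3. The labels do not say whether the numbers stand for separate cultures, so p-values here measure the spread among these arrays only, which may be technical.

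In the integrated stress response, kinases such as those encoded by Eif2ak3 and Eif2ak4 phosphorylate the translation factor eIF2 when unfolded protein or uncharged tRNA accumulates. Most translation then slows while the Atf4 message is translated more, so Atf4 activity is controlled largely at the level of protein. Atf4, often as a dimer with a C/EBP factor, binds a short composite element and raises transcription of genes for amino acid synthesis, uptake and tRNA charging. Tumour cells draw on these genes for serine, asparagine and cysteine.

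Promoters were searched for that composite element because it is the sequence feature that ties many of these genes to Atf4. RefSeq windows (build GRCm38.p6) reaching from 250 bases before to 50 bases after the start were given for 31 of the 34 members, all but Cth, Slc7a5 and Slc7a3. A gene can have several windows and was counted once if any of them matched. The letters TGATGNAA, read on both strands, occurred for 8 of these 31 members (25.8%), against 1219 of 27025 genes with a window (4.51%). Of all 32851 windows, 3.97% held them. The 8 were Asns, Chac1, Fgf21, Jdp2, Nupr1, Pycr1, Slc7a11 and Trib3. A match is a description of the letters and shows no binding, and a window without one says only that these letters are not in it. The lines below give 60 bases around the match in the gene's 5′ to 3′ direction, with the matched letters in capitals. Trib3 is not shown, because its match lies after the start, at bases 15 to 22.
Asns (chr6:7693210-7693269, minus strand): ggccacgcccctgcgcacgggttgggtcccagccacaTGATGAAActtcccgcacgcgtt
Chac1 (chr2:119351023-119351082, plus strand): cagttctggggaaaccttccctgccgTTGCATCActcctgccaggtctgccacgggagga
Slc7a11 (chr3:50443637-50443696, minus strand): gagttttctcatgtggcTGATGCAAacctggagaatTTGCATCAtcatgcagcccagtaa
Jdp2 (chr12:85599356-85599415, plus strand): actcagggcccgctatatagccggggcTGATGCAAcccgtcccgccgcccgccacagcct
Nupr1 (chr7:126625547-126625606, minus strand): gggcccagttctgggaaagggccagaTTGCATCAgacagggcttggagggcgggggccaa
Fgf21 (chr7:45615596-45615655, minus strand): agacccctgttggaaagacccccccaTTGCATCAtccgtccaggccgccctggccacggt
Pycr1 (chr11:120643818-120643877, minus strand): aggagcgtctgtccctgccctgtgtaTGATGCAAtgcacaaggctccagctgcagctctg
Slc7a11 carried the element 2 times in these 60 bases, once on each strand. Asns, Jdp2 and Pycr1 carried it on the strand of the gene, and Chac1, Nupr1 and Fgf21 on the opposite strand. Positions count from the start of the window that held the match, which in Jdp2 and Slc7a11 is not the outermost 5′ end of the gene. The first matched base lay at -23 in Asns, -33 in Jdp2, -66 and -47 in Slc7a11, -103 in Pycr1, -110 in Nupr1, -139 in Fgf21 and -193 in Chac1.

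Several features of the arrays bear on the values below. The deposited log2 signals were not on a common scale: array medians ran from 5.80 to 6.72. Both arrays labelled betaD5 1 correlated more closely with arrays labelled cRAF_cMYC (0.982 and 0.983) than with other betaD5 arrays (0.925 and 0.911). Both labelled cRAF_cMYC 3 lay closer to betaD5 (0.988) than to their own line (0.929 and 0.930). By smaller margins, the arrays of cRAF_cMYC 1 and 2 also had a higher value with betaD5 (0.980 to 0.983) than with their own line (0.967 to 0.973). In betaD5, non-SP 2 (0.988 against 0.987) and SP 3 (0.988 against 0.985) had a higher value with cRAF_cMYC. Each value is the highest correlation with any single array of a line, the array's own pair left out. A single array, such as one of betaD5 1 or cRAF_cMYC 3, can therefore set it. These smaller margins do not show closeness to the other line as a whole. The names betaD5 and cRAF_cMYC therefore stand for lines as labelled throughout. The 3' to 5' log2 ratio of the control transcript Gapdh, a measure of RNA length, was 0.76 and 0.97 in SP arrays betaD5 2 and 3 against 0.10 and 0.05 in their non-SP partners. Epithelial markers above the filter were 4 of 6: Epcam at 7.94 to 9.98, Krt8 at 7.97 to 9.18, Krt18 at 5.46 to 8.73 and Krt19 at 9.58 to 12.42. Cdh1 (3.37 to 6.97) and Cldn7 (5.29 to 6.54) fell below it on their means. Of fibroblast and stromal markers 9 of 10 lay above the filter. Vim read 13.91 to 14.75, Fn1 13.42 to 13.94 and Col1a2 12.15 to 14.76, but Postn ran from 4.48 to 11.69, and Lum (3.94 to 8.17) fell below the filter. Of alveolar type II markers 2 of 8 lay above the filter and Sftpc did not, and of leukocyte and endothelial markers 3 of 7 and 1 of 6 did.

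The study compared SP with non-SP cells within each line, and no member passed the test. With limma and Benjamini-Hochberg adjustment over all genes, 0 of 31 members were called in A2C12, in betaD5, in cRAF_cMYC or in the mean of the 3 lines, where 0% of the 10916 genes were called as well. At an unadjusted p under 0.05 this fit held 0 members in any of these comparisons and 1, 14, 18 and 36 of all genes. A fit that also took each same-numbered pair as a block called 0 members, and its smallest adjusted p among members was 0.211, for Cth in the mean of the lines. Its unadjusted p lay under 0.05 for 4 members in A2C12 (1.71% of all genes), 3 in betaD5 (11.9%), 4 in cRAF_cMYC (8.24%) and 12 in the mean (13.2%), all of them higher in SP cells. The lines were also compared with each other: 0 members were called for a difference of the SP difference between lines, against 0% of all genes, in either fit.

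The members nevertheless leaned one way. In the mean of the lines 26 of 31 lay above 0, against 54.3% of all genes, and their median difference was 0.09 (log2) against 0.01 for all genes. The member medians were 0.09 in A2C12, 0.04 in betaD5 and 0.14 in cRAF_cMYC, where all genes had -0.01, 0.03 and 0.01. At the level of pairs, 14 of 31 members were higher in SP cells in at least 7 of 9 pairs (16.6% of all genes) and 4 of 31 in at least 8 (6.29%): Cth in 9, and Cebpg, Psat1 and Slc38a2 in 8. Cbs was higher in 2 of 9 pairs, the only member at 2 or fewer (12.1% of all genes). These counts describe genes that share samples and regulation and are no test. The genes were also chosen with earlier results of these data known, so a lean can follow from the choice. In bulk RNA of a sorted fraction, fewer cells that use a gene and less RNA per cell cannot be told apart.

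**Figure D1:**
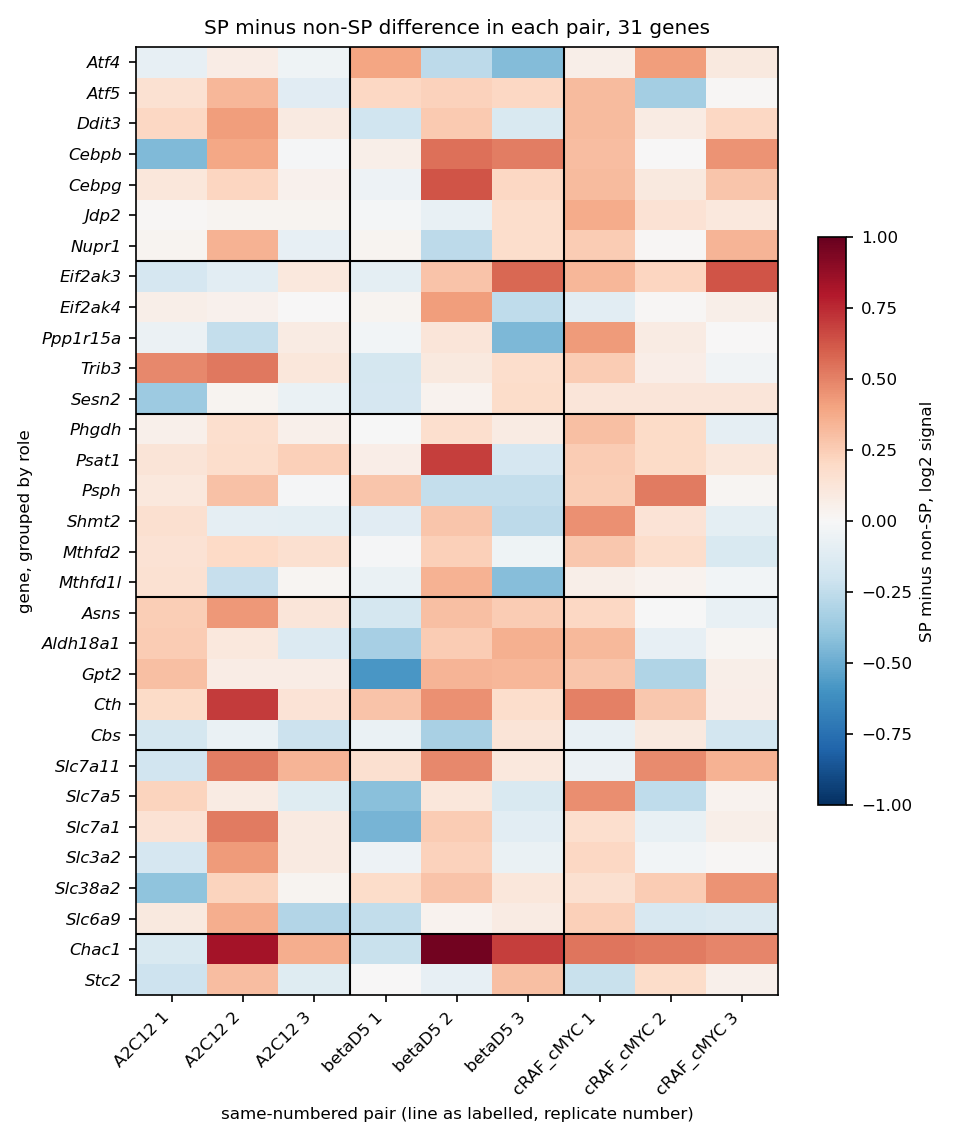
SP minus non-SP difference (log2 signal, colour scale from -1 to 1) of the 31 members above the filter in each of the 9 same-numbered pairs, grouped by role. Chac1 ran from -0.22 in betaD5 1 to 0.96 in betaD5 2, Cth was above 0 in all 9 pairs, and Cbs was below 0 in 7.

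The lean differed between pairs. Members above 0 numbered 20, 26 and 18 of 31 in A2C12 pairs 1, 2 and 3, 10, 25 and 19 in betaD5, and 27, 23 and 22 in cRAF_cMYC. The pair medians were highest in cRAF_cMYC 1 (0.26), betaD5 2 (0.25) and A2C12 2 (0.21), and betaD5 1 was the pair with a median below 0 (-0.05). The Gapdh ratio rose from non-SP to SP by 0.66 in betaD5 2 and 0.93 in betaD5 3 and fell by 0.56 in cRAF_cMYC 2, and the part of this ratio in the member differences was not tested beyond the fits without these pairs and with the ratio as a covariate. With the block and without the pairs betaD5 2 and 3, the median of the mean difference was 0.07. Each line weighs the same in that mean, and betaD5 then rests on pair 1 alone. Members with an unadjusted p under 0.05 in the blocked mean were also counted with 1 pair left out. Without A2C12 2, A2C12 3, betaD5 2, betaD5 3 or cRAF_cMYC 1 they numbered 6, 7, 7, 7 and 6, and without another pair 9 to 13. The share of all genes in these fits was not counted, so these numbers are no result about the members.

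**Figure D2:**
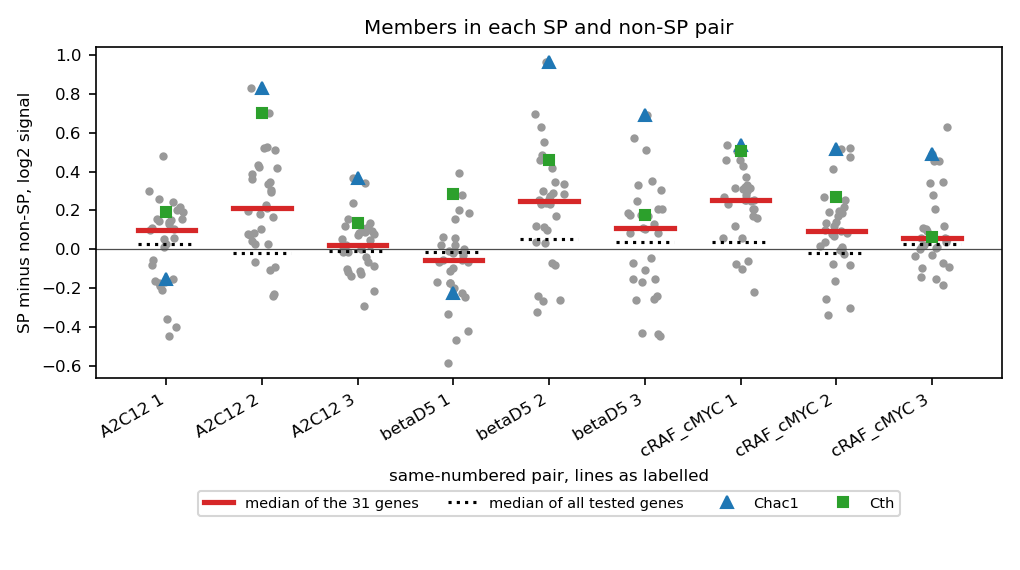
SP minus non-SP difference (log2 signal) of each of the 31 members by pair, with the member median in red and the median of all 10916 genes dotted. The red line lies above the dotted line in all pairs but betaD5 1, where it is -0.05, and Chac1 (triangles) and Cth (squares) are marked.

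Among the transcription factors, Atf4 itself had a mean SP difference near 0, from pairs that differed in direction. In A2C12 its log2 signal was 13.16, 13.34 and 13.11 in non-SP and 13.08, 13.41 and 13.07 in SP arrays. In betaD5 it was 13.56, 13.77 and 13.66 in non-SP and 13.95, 13.51 and 13.22 in SP arrays. In cRAF_cMYC it was 13.01, 13.32 and 13.53 in non-SP and 13.07, 13.73 and 13.62 in SP arrays. The fractions overlapped in every line, and 5 of 9 pairs were higher in SP cells: 3 of 3 in cRAF_cMYC and 1 of 3 in A2C12 and in betaD5. Pair differences ran from -0.44 in betaD5 3 to 0.42 in cRAF_cMYC 2. The mean difference was 0.02, with a 95% interval of the blocked fit of -0.14 to 0.19, and it was -0.04 without the pairs betaD5 1 and cRAF_cMYC 3.

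Ddit3, the factor also called CHOP, which Atf4 induces and which acts when stress persists, read 11.63, 12.18 and 11.74 in A2C12 non-SP and 11.84, 12.60 and 11.84 in SP arrays. The betaD5 arrays read 12.28, 11.71 and 12.15 in non-SP and 12.08, 11.97 and 12.004 in SP arrays. Those of cRAF_cMYC read 11.12, 12.05 and 11.87 in non-SP and 11.44, 12.13 and 12.07 in SP arrays. SP cells were higher in all 3 pairs of A2C12 and of cRAF_cMYC and in 1 of 3 in betaD5, with overlapping groups throughout. The mean difference was 0.14 (SE 0.06 in the blocked fit, limma adjusted p = 0.346), while a dimmer Ddit3 probe set gave -0.18 and the mean of both probe sets gave -0.02. With 1 array left out of the unblocked fit the Ddit3 difference ran from 0.04 (without the non-SP array of cRAF_cMYC 1) to 0.21.

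Cebpg, a C/EBP factor that pairs with Atf4, read 9.63, 9.55 and 9.30 in A2C12 non-SP and 9.74, 9.76 and 9.35 in SP arrays. In betaD5 the values were 9.48, 9.68 and 9.70 against 9.43, 10.31 and 9.91, and in cRAF_cMYC 9.22, 9.39 and 9.84 against 9.53, 9.48 and 10.12. SP arrays were higher in 8 of 9 pairs, by 0.63 in betaD5 2 and by 0.31 or less in the other 7, and lower in betaD5 1. The mean difference was 0.20 (SE 0.07, limma with block, adjusted p = 0.265), and the other Cebpg probe sets gave 0.23 and 0.09.

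Cebpb, a C/EBP factor of stress and inflammatory responses, was the betaD5 member with the smallest p. It read 13.47, 13.02 and 12.91 in betaD5 non-SP and 13.53, 13.57 and 13.42 in SP arrays, a difference of 0.37 (SE 0.14, limma with block, adjusted p = 0.376). In A2C12 it read 12.48, 12.42 and 12.20 against 12.03, 12.80 and 12.18, and in cRAF_cMYC 12.07, 13.08 and 13.05 against 12.38, 13.09 and 13.50. The betaD5 gain came with replicates 2 and 3 (0.55 and 0.51), whose SP arrays had the raised Gapdh ratio, against 0.06 in replicate 1. Atf5, a relative of Atf4, had a mean difference of 0.11 and was the single member whose SP arrays all lay above all non-SP arrays of a line, in betaD5 (11.13 to 11.32 against 10.90 to 11.11), a pattern that 2.31% of all genes showed there. No member did so in either direction in A2C12 (1.18% higher, 1.56% lower) or cRAF_cMYC (0.128% higher, 0.202% lower). Jdp2, a repressor that binds stress-responsive promoters, and Nupr1, a small chromatin-linked stress protein, each had a mean difference of 0.09.

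Of the eIF2 kinases, Eif2ak3, also called PERK, the sensor in the endoplasmic reticulum, had the smallest p of the members in cRAF_cMYC. It read 9.09, 9.94 and 9.61 in non-SP and 9.42, 10.15 and 10.24 in SP arrays there, a difference of 0.39 (SE 0.13, limma with block, adjusted p = 0.515). In A2C12 it read 9.29, 9.26 and 8.92 against 9.12, 9.16 and 9.03, and in betaD5 9.93, 9.58 and 9.40 against 9.83, 9.87 and 9.97. SP cells were thus higher in 3 of 3 cRAF_cMYC pairs and in 1 of 3 A2C12 pairs, but the contrast between these lines was not called. Eif2ak4, also called GCN2, the sensor of uncharged tRNA, had a mean SP difference of 0.03, and a dim second probe set gave -0.19.

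Trib3, a pseudokinase that restrains Atf4, had the smallest p in A2C12, where it read 10.33, 10.58 and 9.94 in non-SP and 10.81, 11.11 and 10.06 in SP arrays. That difference was 0.37 (SE 0.11, limma with block, adjusted p = 1). In betaD5 it read 10.84, 10.32 and 10.14 against 10.66, 10.42 and 10.32, and in cRAF_cMYC 9.25, 10.68 and 10.30 against 9.51, 10.75 and 10.27. SP was higher in 7 of 9 pairs, with a mean difference of 0.17 (SE 0.06, adjusted p = 0.302) and 0.23 on the other probe set. With 1 array left out of the unblocked fit the Trib3 mean ran from 0.03 (without the non-SP array of cRAF_cMYC 1) to 0.28 (without its SP partner), and with a pair left out of the blocked fit from 0.14 to 0.21. Of the other feedback genes, Ppp1r15a, which directs dephosphorylation of eIF2, had a mean difference of -0.01, and Sesn2, a leucine-sensing brake on growth signalling, of 0.00.

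In serine and 1-carbon synthesis, 5 of 6 genes lay above 0 in the mean of the lines. Psat1, the aminotransferase of the serine pathway, read 12.23, 12.25 and 12.01 in A2C12 non-SP and 12.36, 12.43 and 12.25 in SP arrays. Its betaD5 arrays read 12.81, 12.53 and 12.91 against 12.87, 13.22 and 12.74, and in cRAF_cMYC 12.11, 12.52 and 12.59 against 12.37, 12.71 and 12.70. SP arrays were higher in every pair but betaD5 3. The mean difference was 0.19 (SE 0.07, limma with block, adjusted p = 0.306), and a second Psat1 probe set gave 0.20. Phgdh, which opens the pathway, had 0.10 (SE 0.04) and was higher in 7 of 9 pairs, and Psph, which closes it, had 0.11 (SE 0.07) and was higher in 6. The mitochondrial folate enzymes Mthfd2, Shmt2 and Mthfd1l had mean differences of 0.11, 0.04 and -0.02.

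Asns, asparagine synthetase and a classic Atf4 target, read 11.67, 11.95 and 11.69 in A2C12 non-SP and 11.91, 12.38 and 11.81 in SP arrays. The betaD5 signals were 13.36, 12.73 and 12.72 in non-SP and 13.19, 13.03 and 12.97 in SP arrays. Those of cRAF_cMYC were 12.16, 12.90 and 12.90 in non-SP and 12.36, 12.90 and 12.83 in SP arrays. All 3 A2C12 pairs, 2 betaD5 pairs and 1 cRAF_cMYC pair were higher in SP cells, and the groups overlapped in each line. The A2C12 difference was 0.27 (SE 0.10, limma with block, adjusted p = 1) and the mean difference was 0.15 (SE 0.06, adjusted p = 0.317), with 0.14 on a second probe set. Without the pairs betaD5 2 and 3, which leaves betaD5 1 alone for that line (-0.18), the mean difference of Asns was 0.05. With 1 array left out of the unblocked fit it ran from 0.06 (without the non-SP array of cRAF_cMYC 1) to 0.22.

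Cth, cystathionine gamma-lyase, which releases cysteine at the end of transsulfuration, was the member higher in SP cells in every pair. In A2C12 it read 8.83, 9.35 and 8.80 in non-SP and 9.02, 10.05 and 8.93 in SP arrays. In betaD5 it read 10.17, 4.53 and 4.84 in non-SP and 10.46, 4.98 and 5.01 in SP arrays. In cRAF_cMYC it read 8.38, 10.21 and 4.89 in non-SP and 8.88, 10.48 and 4.96 in SP arrays. Pairs therefore differed far more than fractions, and the pair differences ran from 0.06 to 0.70 (0.98% of all genes were higher in all 9 pairs). In betaD5 2, betaD5 3 and cRAF_cMYC 3 all 6 arrays lay below their array median and below the filter bound of 6.53. Cth passed the filter on its mean over all arrays (7.93), through the other 12. The differences of those low pairs (0.46, 0.17 and 0.06) therefore compare dim signals and add little to the count of 9. The mean difference was 0.31 (SE 0.07, 95% interval 0.15 to 0.47, limma with block, unadjusted p = 0.00158, adjusted p = 0.211), and without the block its SE was 0.96. In the blocked fit it was among the 3 smallest p of A2C12 (0.34, SE 0.13, adjusted p = 1) and of betaD5 (0.31, SE 0.13, adjusted p = 0.399). The difference was 0.30 without the pairs betaD5 2 and 3, which leaves betaD5 1 alone for that line. It was 0.35 without betaD5 1 and cRAF_cMYC 3.

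Cbs, which makes the cystathionine that Cth cleaves, lay on the other side, with a mean SP difference of -0.10 (SE 0.06, adjusted p = 0.513) and -0.09 on its second probe set. Aldh18a1, which starts proline and ornithine synthesis, and Gpt2, the mitochondrial alanine aminotransferase, had mean differences of 0.08 and 0.06. Both swung between pairs, Gpt2 from -0.58 in betaD5 1 to 0.34 in betaD5 2.

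Among the transporters, Slc7a11, the cystine importer, read 6.61, 6.95 and 6.41 in A2C12 non-SP and 6.42, 7.46 and 6.75 in SP arrays. In betaD5 it read 7.34, 6.49 and 6.54 against 7.50, 6.97 and 6.65, and in cRAF_cMYC 6.27, 7.13 and 6.38 against 6.21, 7.61 and 6.72. SP arrays were higher in 7 of 9 pairs. The mean difference was 0.24 (SE 0.08, limma with block, adjusted p = 0.271), and it was 0.10 on a dimmer probe set. With 1 array left out of the unblocked fit it ran from 0.12 (without the SP array of cRAF_cMYC 2) to 0.35. Slc38a2, a sodium-coupled importer of small neutral amino acids, read 12.29, 13.25 and 12.73 in cRAF_cMYC non-SP and 12.45, 13.50 and 13.19 in SP arrays, a difference of 0.29 (SE 0.10, adjusted p = 0.533). It read 12.31, 12.08 and 11.48 against 11.91, 12.31 and 11.51 in A2C12, and 13.36, 12.87 and 12.57 against 13.54, 13.16 and 12.68 in betaD5. Its mean difference of 0.14 was not shared by the other Slc38a2 probe sets (-0.03 and -0.07). The exchanger of large neutral amino acids Slc7a5, its partner Slc3a2, the cationic transporter Slc7a1 and the glycine transporter Slc6a9 had mean differences of -0.0033, 0.07, 0.06 and -0.0030. Slc7a3, below the filter, had pair differences of -0.29 to 0.22.

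Chac1, which degrades glutathione and is a sensitive readout of Atf4 activity, had the largest mean SP difference of the 31 members. In A2C12 it read 8.84, 9.39 and 7.89 in non-SP and 8.68, 10.22 and 8.26 in SP arrays. In betaD5 it read 9.54, 9.33 and 9.03 in non-SP and 9.32, 10.29 and 9.72 in SP arrays. In cRAF_cMYC it read 7.32, 8.50 and 8.66 in non-SP and 7.85, 9.02 and 9.15 in SP arrays. Chac1 was higher in SP cells in 7 of 9 pairs and lower in A2C12 1 (-0.15) and betaD5 1 (-0.22), and replicates spread so widely that the groups overlapped in each line. The 3 cRAF_cMYC pairs were the most even, at 0.54, 0.52 and 0.49. The differences were 0.35 in A2C12, 0.48 in betaD5 (adjusted p = 0.412) and 0.52 in cRAF_cMYC (adjusted p = 0.581), each with an SE of 0.21 in the blocked limma fit. The mean was 0.45 (SE 0.12, 95% interval 0.18 to 0.71, unadjusted p = 0.00367, adjusted p = 0.220). Without the pairs betaD5 2 and 3, where Chac1 stood at 0.96 and 0.69 beside the raised Gapdh ratio, the mean was 0.21. Each line weighs the same in this mean, and betaD5 then rests on pair 1 alone (-0.22). The other 2 lines are unchanged in that fit. With the 3' to 5' ratio as a covariate the mean was 0.35. With 1 array left out of the unblocked fit the Chac1 mean ran from 0.25 (without the SP array of A2C12 2) to 0.58. Stc2, a secreted glycoprotein induced by stress, had a mean difference of 0.02, and Fgf21, below the filter, had pair differences of -0.45 to 0.13.

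The 6 members above the filter whose promoter held the element were Asns, Chac1, Jdp2, Nupr1, Slc7a11 and Trib3. Their mean SP differences lay between 0.086 and 0.45, beside a median of 0.0915 for all 31 members. Jdp2 (0.086) lay below that median and Nupr1 (0.0915) stood at it. Whether the element goes with the difference was not tested. Cth, Cebpg and Psat1, also among the 6 members with the smallest p, had no window or no match.

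Genes next to these in the same biology were read from lists that are no members, also chosen with earlier results of these data known. Over all genes, 54.3% lay above 0 in the mean SP difference and 13.2% had an unadjusted p under 0.05 in the blocked fit, and the counts below stand against these shares. Of the cytosolic aminoacyl-tRNA synthetases, which charge tRNAs and are in part Atf4 targets, 17 of 19 lay above 0 in the mean SP difference, with a median of 0.11, and 9 had an unadjusted p under 0.05 in the blocked limma fit, all higher, but 0 were called. The smallest p belonged to Eprs (0.16, SE 0.04, adjusted p = 0.186) and Sars (0.16, SE 0.05, adjusted p = 0.245). Of 23 further amino acid and stress genes, 18 lay above 0, with a median of 0.07, and 0 were called. Ddit4, a stress-induced inhibitor of growth signalling, had 0.25 (SE 0.05, adjusted p = 0.157) and Herpud1, of endoplasmic reticulum protein degradation, had 0.26 (SE 0.07, adjusted p = 0.220). Subunits and regulators of eIF2 and eIF2B lay above 0 in 8 of 12 (median 0.06, 0 called), with Gcn1, the activator of the Eif2ak4 kinase, at 0.14 and Eif2s2, a subunit of eIF2, at 0.09. Endoplasmic reticulum chaperones, targets of the other branches of the unfolded protein response, lay above 0 in 8 of 15, near the share of all genes, with a median of 0.02 and 0 called, Hsp90b1 at 0.11 and Pdia4 at 0.12 having the smallest p. Fibroblast and stromal markers lay above 0 in 1 of 9, with a median of -0.09 and 0 called, Col1a1 having the smallest p (-0.16, SE 0.06, adjusted p = 0.284), and the part of this in the member differences was not tested.

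Levels by line differed far more than levels by fraction. Among non-SP cells, 14 members were called higher and 2 lower in betaD5 than in A2C12 on the deposited scale, but 53.1% of all genes were called higher and 2.11% lower there (55.2% in all), and the median of all genes was shifted by 0.71. Between cRAF_cMYC and A2C12, 7 members were called higher and 1 lower, against 26.3% and 2.28% of all genes (28.5% in all) and a shift of 0.45. With each array centred on its median, 4 members were higher and 2 lower in betaD5 (13% and 10.8% of all genes, 23.8% in all), and 3 were higher and 2 lower in cRAF_cMYC (11.8% and 7.2%, 19% in all). Slc7a5, Eif2ak4 and Mthfd2 were higher and Cbs lower than in A2C12 in both lines on the deposited scale, centred and after quantile normalization, and so were Jdp2 (higher) and Nupr1 (lower) in betaD5. Leaving out 1 array gave 10 (A2C12 3) to 19 calls in betaD5 and 4 (cRAF_cMYC 2) to 13 (cRAF_cMYC 1) in cRAF_cMYC. The share of all genes in these fits is not given here, so these counts are no result about the members. Among SP cells, on the deposited scale, 16 members were higher and 2 lower in betaD5 than in A2C12 (55.3% and 1.89% of all genes, 57.2% in all), and 9 higher and 1 lower in cRAF_cMYC (29.4% and 2.43%, 31.8% in all). No member was called between cRAF_cMYC and betaD5 (0% of all genes, shift -0.27; limma, 4 members and 689 genes with an unadjusted p under 0.05).

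**Figure D3:**
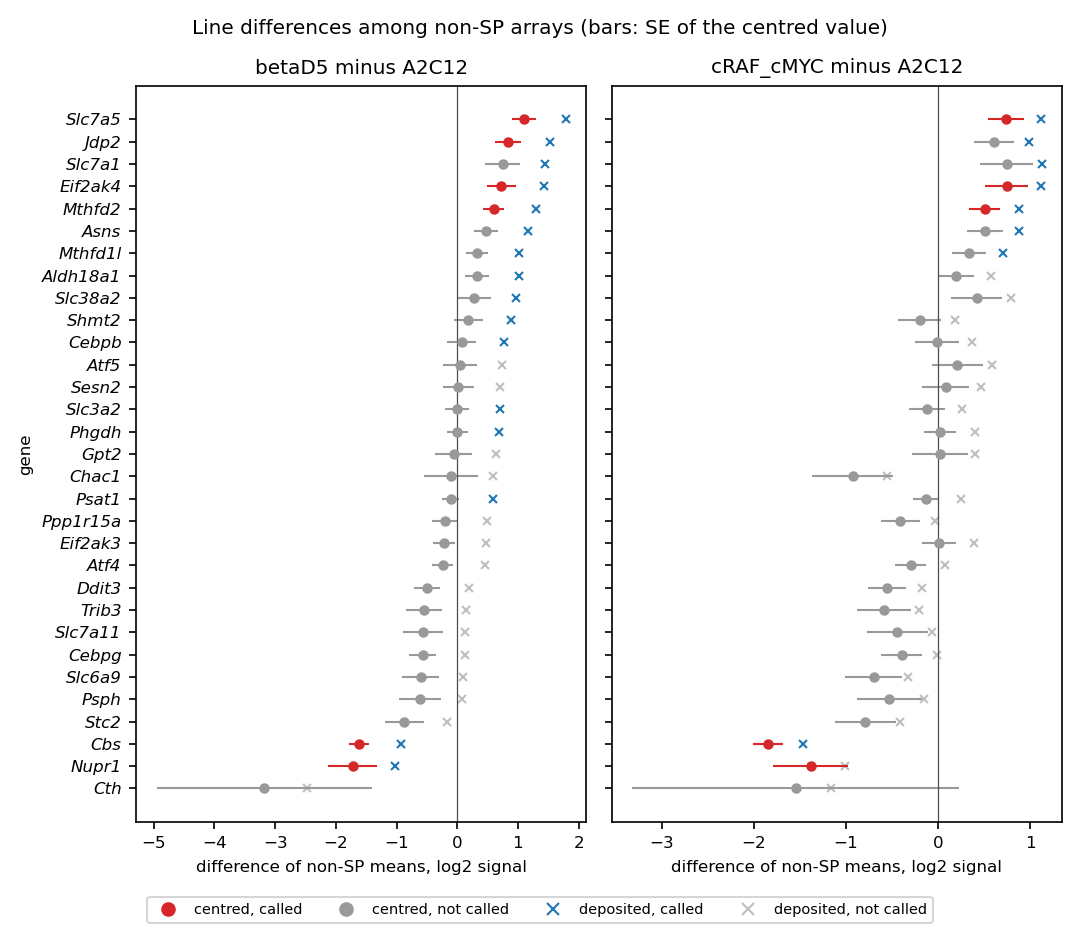
Difference of non-SP means (log2 signal) of each of the 31 members, betaD5 minus A2C12 on the left and cRAF_cMYC minus A2C12 on the right. Circles are values centred on array medians with their SE (red where called), crosses the deposited values (blue where called); among the centred circles of the left panel Slc7a5 lies highest, at 1.10, and the wide bars of Cth reflect its split between replicates.

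Slc7a5, which imports leucine and other large neutral amino acids, had the largest gain over A2C12 in betaD5. Its deposited signal was 10.81, 11.33 and 10.84 in A2C12, 12.82, 12.76 and 12.77 in betaD5 and 11.46, 12.37 and 12.49 in cRAF_cMYC non-SP arrays. In SP arrays it was 11.03, 11.41 and 10.73, then 12.40, 12.88 and 12.62, then 11.93, 12.12 and 12.53. Both lines thus lay wholly above A2C12 in each fraction. Among non-SP cells betaD5 exceeded A2C12 by 1.79 as deposited and 1.10 centred (SE 0.20, limma adjusted p = 0.00106), and cRAF_cMYC by 1.12 and 0.74 (SE 0.20, adjusted p = 0.0169). In SP cells the centred differences were 0.94 and 0.79. Every array of betaD5 exceeded every A2C12 array for 18 of 31 members among non-SP cells, against 68.3% of all genes, and every cRAF_cMYC array did so for 7, against 38.3%.

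Eif2ak4 read 7.68, 7.30 and 7.21 in A2C12, 8.74, 9.0 and 8.72 in betaD5 and 8.05, 8.80 and 8.72 in cRAF_cMYC non-SP arrays. Its SP arrays read 7.74, 7.34 and 7.21, then 8.77, 9.42 and 8.46, then 7.95, 8.81 and 8.78. The centred differences from A2C12 were 0.73 in betaD5 and 0.74 in cRAF_cMYC (SE 0.23, limma adjusted p = 0.0340 and 0.0362). Without the pairs betaD5 1 and cRAF_cMYC 3 they were 0.71 and 0.67 and no longer called, and on the deposited scale cRAF_cMYC was not called once non-SP array cRAF_cMYC 2 or A2C12 3 was left out. Its dim probe set gave deposited differences of 1.34 and 0.18.

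Mthfd2, the mitochondrial folate dehydrogenase, read 10.17, 10.13 and 9.96 in A2C12, 11.55, 11.30 and 11.29 in betaD5 and 10.45, 11.38 and 11.09 in cRAF_cMYC non-SP arrays. The SP arrays read 10.32, 10.33 and 10.12, then 11.54, 11.53 and 11.25, then 10.72, 11.55 and 10.94. Centred, the differences from A2C12 were 0.60 (SE 0.17, limma adjusted p = 0.0188) and 0.51 (SE 0.17, adjusted p = 0.0485). Without both of those pairs Mthfd2 was not called in either line (0.45 and 0.48), and as deposited cRAF_cMYC was not called once non-SP array cRAF_cMYC 2 or A2C12 3 was left out.

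Jdp2 read 9.84, 10.03 and 10.01 in A2C12, 11.63, 11.37 and 11.47 in betaD5 and 10.21, 11.22 and 11.42 in cRAF_cMYC non-SP arrays. Its SP arrays read 9.86, 10.05 and 10.03, then 11.61, 11.30 and 11.65, then 10.58, 11.36 and 11.52. Every A2C12 array lay below every array of the other lines. The centred difference was 0.84 in betaD5 (SE 0.22, limma adjusted p = 0.0117) and 0.61 in cRAF_cMYC (adjusted p = 0.0631), which was called on the deposited scale (0.99) and not when centred. Slc7a1, an arginine and lysine importer, read 10.90, 11.21 and 10.46 in A2C12, 12.79, 12.07 and 12.05 in betaD5 and 12.01, 12.04 and 11.89 in cRAF_cMYC non-SP arrays. The SP arrays read 11.04, 11.73 and 10.55, then 12.32, 12.32 and 11.94, then 12.18, 11.97 and 11.95. It was called in both lines as deposited (1.44 and 1.13) and in neither when centred (0.75 and 0.75, SE 0.29).

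Cbs had the opposite direction. It read 7.78, 7.78 and 7.47 in A2C12, 6.70, 6.94 and 6.62 in betaD5 and 5.90, 6.15 and 6.58 in cRAF_cMYC non-SP arrays, and 7.61, 7.72 and 7.26, then 6.64, 6.61 and 6.75, then 5.83, 6.24 and 6.39 in SP arrays. All A2C12 arrays lay above all others, which made Cbs the single member wholly lower in non-SP cells of both lines (3.9% and 3.95% of all genes). The centred differences were -1.62 in betaD5 and -1.85 in cRAF_cMYC (SE 0.16, limma adjusted p = 7.78e-06 and 2.13e-06). All cRAF_cMYC arrays but non-SP 3 lay below the filter bound of 6.53, and betaD5 arrays lay little above it. Cbs passed the filter on its mean over all arrays (6.83), which the high A2C12 arrays raised. These p-values therefore concern a gene kept with the help of the group it is compared with, and add no separate support. A second, dimmer Cbs probe set gave deposited differences of -0.04 and -0.58. Nupr1 read 11.47, 12.20 and 12.32 in A2C12, 11.56, 10.79 and 10.56 in betaD5 and 10.66, 11.80 and 10.52 in cRAF_cMYC non-SP arrays. Its SP arrays read 11.49, 12.55 and 12.23, then 11.58, 10.53 and 10.73, then 10.91, 11.81 and 10.85. The groups overlapped, since betaD5 1 and cRAF_cMYC 2 lay above the lowest A2C12 array of their fraction. Centred, Nupr1 differed by -1.72 in betaD5 (SE 0.41, limma adjusted p = 0.00641) and -1.38 in cRAF_cMYC (adjusted p = 0.0257), and on the deposited scale the cRAF_cMYC difference of -1.005 was not called (adjusted p = 0.0709). As deposited, the betaD5 call was lost without non-SP array 2 or 3 of betaD5 or of A2C12.

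The other 9 members called in betaD5 on the deposited scale were Asns, Aldh18a1, Mthfd1l, Slc38a2, Shmt2, Cebpb, Slc3a2, Phgdh and Psat1, at 0.59 to 1.17, and none of these was called when centred. Centred, Asns differed by 0.47 (adjusted p = 0.0917) in betaD5 and 0.51 (adjusted p = 0.0838) in cRAF_cMYC, while Psat1 was at -0.11 and Phgdh at -0.0011 in betaD5. Probe sets differed in sign in betaD5 as deposited for Shmt2 (-0.53 to 0.88) and for Cebpb (0.77 on the probe set used and -0.06 on a dimmer one). In cRAF_cMYC Cebpb stood at 0.37 and -0.43 on these. Without the pairs betaD5 1 and cRAF_cMYC 3 and centred, 2 members were higher and 9 lower in betaD5 than in A2C12 (15.5% and 21.0% of all genes), the lower ones being Cbs, Cebpg, Cth, Ddit3, Nupr1, Psph, Slc6a9, Slc7a11 and Trib3. Slc7a3, below the filter, had non-SP means of 5.5 ± 0.38 in A2C12, 6.52 ± 0.59 in betaD5 and 6.96 ± 0.77 in cRAF_cMYC (SD, n = 3).

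Of the 19 tRNA synthetases, 4 were called higher and 2 lower than in A2C12 in betaD5 when centred (13% and 10.8% of all genes), and 5 higher and 0 lower in cRAF_cMYC (11.8% and 7.2%). Hars (1.23 and 1.24), Lars (1.10 and 1.08) and Aars (0.93 and 0.73) were higher in both, and Sars was lower in betaD5 (-1.02). Of the endoplasmic reticulum chaperones 0 were higher and 5 of 15 lower in betaD5, against the same 13% and 10.8%, with Sdf2l1 at -1.37, and 1 was lower in cRAF_cMYC, Sdf2l1 at -1.49.

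**Figure D4:**
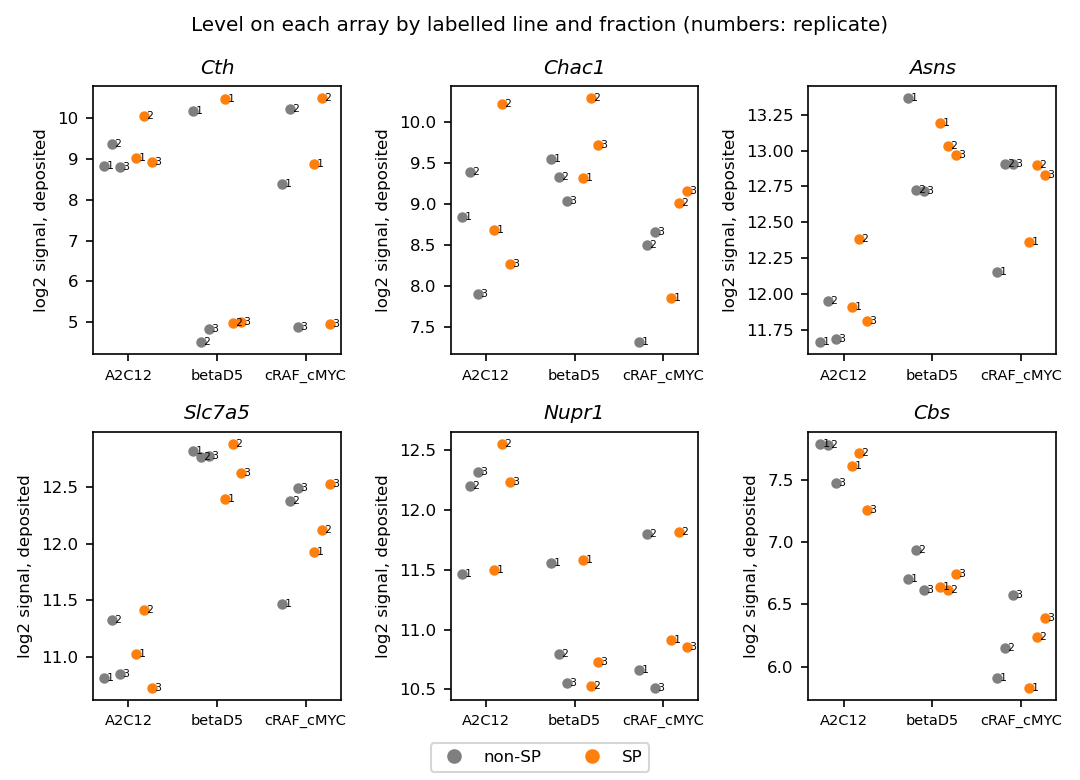
Deposited log2 signal of 6 members on each of the 18 arrays, by labelled line, with non-SP arrays in grey, SP arrays in orange and the replicate number beside each point. Cth falls to between 4.53 and 5.01 in betaD5 2 and 3 and cRAF_cMYC 3, in both fractions, and lies at 8.38 or above on the other 12 arrays.

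Cth was split by replicate within the labelled lines. In the 6 arrays labelled betaD5 2, betaD5 3 and cRAF_cMYC 3 it read 4.53 to 5.01, below the array median in all 6. In the other 6 arrays of these lines it read 8.38 to 10.48, and in A2C12 8.80 to 10.05. No array lay between the low and the high range. The arrays that correlate least with their own labelled line (betaD5 1 and cRAF_cMYC 3) are those that place Cth on the other side from the rest of that line. Without both pairs, betaD5 therefore holds low and cRAF_cMYC high Cth arrays alone, and the call of Cth between these lines in that fit restates the split and is no further evidence of it (11.2% of all genes called as deposited, 17.4% centred). Chosen after their values were seen, 3 other genes divided these 2 lines in the same way. They were Vldlr, a lipoprotein receptor gene (5.52 to 7.18 in those 6 arrays, 9.60 to 11.46 in the other 6), Glul, glutamine synthetase (7.97 to 8.43 against 9.85 to 11.86), and Bcat1, a branched-chain aminotransferase (8.22 to 9.30 against 10.13 to 11.74). In A2C12 Vldlr read 9.86 to 10.37, within the high range. Glul read 9.39 to 9.74 there, below the high range, and Bcat1 9.05 to 10.07, which overlaps the low range. Between cRAF_cMYC and betaD5 non-SP cells as labelled, 5 members were lower in every cRAF_cMYC array, against 9.02% of all genes: Atf4, Cbs, Slc7a5, Slc7a1 and Chac1. This comparison had no call, and array medians there differ by line.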

How the data were processed

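The authors deposited 1 log2 signal for each probe set and array, made with Affymetrix Expression Console per the submitters' processing notes; its version, summary algorithm and normalization are not given in the sources used here. Depth does not apply to arrays, and their number limits the precision. Control probe sets (64) and probe sets with several symbols (932) were left out. Each gene was represented by its probe set of highest mean, and genes under a mean of 6.53 log2, the lowest 40%, were dropped. R 4.3.3 and limma 3.58.1 (lmFit, eBayes with a trend) fitted 6 group means to all 18 arrays (12 residual degrees of freedom). Tests were two-sided, adjusted over all 10916 genes with Benjamini-Hochberg, and called under 0.05. Deviations of same-numbered arrays from their group means correlated at 0.426 to 0.952 in all 9 pairs, so the label numbers were taken to pair SP with non-SP arrays, and a fit with each pair as a block (6 degrees of freedom) stands beside the main one. In betaD5 and cRAF_cMYC the odd pair (betaD5 1, cRAF_cMYC 3) shifts the deviations of its whole group, and different-numbered arrays were not compared. These correlations therefore cannot test the pairing, which the blocked fit assumes. Tested on simulated data, a change of 0.5 common to the lines in the SP comparison over 10916 genes was found for 10.5% of 200 altered genes unblocked and for 87% blocked, with 0 and 6 false calls. Tried besides were centring each array on its median, quantile normalization, other filters, the mean of all probe sets, no trend, the 3' to 5' ratio as a covariate, and leaving out each array or pair; centring without the pairs betaD5 1 and cRAF_cMYC 3, and the blocked fits without 2 pairs, were added after seeing the data. Genes with full values were the 6 members with the smallest p in the blocked mean SP difference, the 3 in each line, up to 5 members called higher and 5 lower in each line comparison, and always Atf4, Ddit3, Asns and Chac1; of other lists up to 4 called genes or the 2 with the smallest p. The members and lists were chosen with earlier results of these data known.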

Additional observations from a re-analysis of the deposited data

How the results depend on the processing

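The number of members called between SP and non-SP cells was 0 in all 3 lines and their mean under each of 39 alternatives, the replicate block included, and the block changed no call. The member median of the mean SP difference lay between -0.00 and 0.17 with 1 array or pair left out, between -0.00 and 0.15 for betaD5, between -0.071 and 0.18 for A2C12 (lowest without the SP array of replicate 2) and between -0.16 (without the non-SP array of cRAF_cMYC 1) and 0.34 (without the SP array of cRAF_cMYC 1) for cRAF_cMYC, with -0.057 without the SP array of cRAF_cMYC 2 and 0.32 without the non-SP array of cRAF_cMYC 2. Atf4 turned to -0.042 without the pairs betaD5 1 and cRAF_cMYC 3, blocked or not, to -0.013 when centred without them, to -0.058 without the pair betaD5 1 and -0.013 without cRAF_cMYC 2 in the blocked fit, and ranged from -0.040 to 0.093 with 1 array left out. Ddit3 turned to -0.023 with the mean of its probe sets. Cth ranged from -0.30 to 0.92 with 1 array left out unpaired, which breaks a pair, and from 0.25 to 0.35 with a pair left out in the blocked fit. Between betaD5 and A2C12 non-SP cells, 16 members were called as deposited (55.2% of all genes), 6 with quantile normalization (28.8%) and 6 centred (23.8%). With an array left out, where the share of all genes is not given here, it was 10 (without the A2C12 array 3) to 19 members. Between cRAF_cMYC and A2C12 there were 8 members called as deposited (28.5% of all genes) and 5 centred (19%). With an array left out there were 4 (without the cRAF_cMYC array 2) to 13 (without cRAF_cMYC array 1), and 5 without cRAF_cMYC array 3. Between cRAF_cMYC and betaD5 there were 0, and 1 (Cth, whose split follows these labels) without the pairs betaD5 1 and cRAF_cMYC 3, as deposited and centred. In betaD5 minus A2C12, Psat1 turned to -0.13 with quantile normalization, -0.11 centred and -0.20 centred without both pairs, Slc3a2 to -0.017 with quantile normalization and -0.019 centred without both pairs, Phgdh to -0.0011 centred (-0.014 without both pairs), and Cebpb to -0.15 centred without both pairs. Slc7a5 kept its direction and call in both line comparisons under all 26 alternatives. With the mean of all probe sets Cbs and Nupr1 were not called in betaD5 and Eif2ak4 was not called in cRAF_cMYC. Nupr1 in betaD5 also lost its call without non-SP array 2 or 3 of betaD5 or of A2C12. Centring removes the shift between arrays by construction; the cause of the other changes was not tested. Signals near the filter bound of 6.53, such as those of Slc7a11 and Cbs, limit the precision of their differences. So do the Cth signals below this bound in betaD5 2, betaD5 3 and cRAF_cMYC 3. The Cbs signals lay below it in all cRAF_cMYC arrays but non-SP 3.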
